A study of Mus musculus with 35 samples.

Results

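Sterol uptake, sterol efflux and the targets of the liver X receptor (LXR) were followed in the mouse small intestine through 10 genes: Npc1l1, Abcg5, Abcg8, Abca1, Abcg1, Scarb1, Npc2, Nr1h3, Lpcat3 and Soat2. Members were found by gene symbol, and every array probeset with 1 of these symbols was taken. Of the 10 genes, 9 had 17 such probesets among the 18193 genes named on the array, and Soat2, an enzyme that esterifies cholesterol, was not analysed here. A probeset was counted as expressed when its mean exceeded 32, or 5 on the log2 scale, in at least 1 of the 8 groups. This limit left 13 member probesets of 8 genes, out of 15384 expressed probesets of 8626 genes. Abcg1 stayed under it on both of its probesets, with a highest group mean of 4.55 on the log2 scale, and 2 of the 4 Npc2 probesets stayed under it as well.

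In all, 35 arrays were hybridised, each with small intestinal RNA from a single male mouse, either PPARα-null (129S4/SvJae) or wild-type (129S1/SvImJ), killed 6 h after an oral gavage of 400 µl. WY14643, a synthetic PPARα agonist, was given to 4 PPARα-null and 4 wild-type mice. EPA was given to 5 mice of each genotype, DHA to 4 PPARα-null and 5 wild-type mice, and OA to 4 of each. The fatty acids were given as the triacylglycerols trieicosapentaenoin, tridocosahexaenoin and triolein, whereas WY14643 was a 0.1% suspension in 0.5% carboxymethyl cellulose without oil. All mice were 4 months old, had eaten a purified diet modified with olive oil for 2 weeks, and were fasted for 4 h before the gavage. No vehicle-treated mice were analysed here, so a difference between WY14643 and OA cannot be told apart from a difference between a gavage without and with oil. The genotypes also came from different substrains, and in PPARα-null mice the receptor is missing from every tissue. The RNA came from a whole organ, in which fewer cells of a type and less RNA per cell cannot be told apart.

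Dietary and biliary cholesterol enters the enterocyte through NPC1L1 at the brush border, and ABCG5 and ABCG8, which work as a pair, pump sterols back into the lumen. Cholesterol that stays in the cell leaves with chylomicrons after esterification, or through ABCA1 at the basolateral side, where it is loaded onto apolipoprotein A-I. LXRα, encoded by Nr1h3, senses oxysterols and switches on Abca1, Abcg1, Abcg5, Abcg8 and Lpcat3, whereas SREBP2 drives sterol synthesis and uptake when cellular sterol is low. PPARα is a fatty acid sensor that turns on fatty acid oxidation in enterocytes.

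A pair of stretches of genomic sequence is shown because the divergent results below turn on Abca1 and on Abcg5 with Abcg8. Both come from RefSeq on GRCm38.p6, a C57BL/6J assembly, which is not the strain of these mice. Windows of 300 bases around the annotated start were found for 7 of the 10 genes, in 9 windows. Abca1 lies at chr4:53030789-53159988. The 30 bases at chr4:53159941-53159970, on the minus strand, hold a match to the DR4-like motif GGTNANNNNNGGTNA, the spacing that LXR with its partner RXR prefers. The match, in capitals, runs on the opposite strand, 53 to 67 bases upstream of the start at 53159895 on which the window was set. The gene record begins further upstream, at 53159988, so the stretch lies within it.
Abca1: acagcgttTGACCGGTAGTAACCccggcgc
Searched on both strands, this motif was present in 0.718% of 32851 windows and, among the windows of the members, only in that of Abca1. Abcg5, at chr17:84658174-84683011, and Abcg8, at chr17:84676302-84700333, point away from each other. The Abcg8 record extends back over Abcg5 because 1 of its starts lies further upstream. Between the Abcg5 start and the nearer Abcg8 start lie only 109 bases, chr17:84683012-84683120, shown on the plus strand because both genes share them. Capitals mark 2 matches to the GATA motif AGATAA, both on the minus strand of this stretch.
Abcg5 to Abcg8: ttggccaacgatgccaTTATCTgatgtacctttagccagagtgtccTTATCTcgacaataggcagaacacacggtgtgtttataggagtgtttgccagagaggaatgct
AGATAA was found in 11.2% of the windows. A match describes these letters and is not a site of binding.

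The arrays were alike in scale, with medians from 2.83 to 2.88 on the log2 scale and correlations between arrays of 0.98 or higher. A probeset shared by the PPARα-responsive genes Cyp4a10 and Cyp4a31 went against the genotype label in 3 arrays. It read 9.91 in PPARα-null EPA replicate 5 and 10.61 in PPARα-null OA replicate 1, against 1.36 to 2.50 in the other 15 PPARα-null arrays. In wild-type EPA replicate 5 it read 1.81, against 8.15 to 12.75 in the other 17 wild-type arrays. Ppara itself was read on the probeset chosen for the largest mean difference between the labelled genotypes in these data. Its place relative to the deleted part is not known here. This probeset read 7.83 and 7.27 in these 2 PPARα-null arrays, against 4.32 to 6.56 in the other 15. In wild-type EPA replicate 5 it read 4.82, against 5.60 to 9.58 in the other 17. Every array was used as labelled, so both EPA groups and the PPARα-null OA group include an array against its label. Many of the results that rest on these 3 are also given without them. Leaving out arrays that go against their genotype favours a genotype difference, so values without them are no independent test. Enterocyte markers (Vil1, Fabp2, Alpi, Lct, Treh, Anpep and Cdh17) were all expressed, with a summed linear level of 43610 to 52880 per array.

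The sterol transporters of the brush border were higher after WY14643 than after OA in both genotypes. Abcg8 rose 4.64-fold in PPARα-null and 4.78-fold in wild-type mice, Abcg5 1.89- and 1.95-fold, and Npc1l1 1.62- and 1.37-fold. Without the 3 arrays against their labels, the PPARα-null rises were 6.06-fold for Abcg8, 2.06-fold for Abcg5 and 1.73-fold for Npc1l1. Abca1 and Scarb1 rose in wild-type mice, and Lpcat3 fell in PPARα-null mice. Against OA, 5 member probesets rose and 1 fell among the 13 in PPARα-null mice, while 25.3% of all expressed probesets were called there, 14.6% higher and 10.7% lower. In wild-type mice 10 rose and none fell, where 28.1% of all probesets were called, 13.4% higher and 14.7% lower. Of the 10, Abca1 on 1450392_at, passed the expression limit only through the wild-type WY14643 group and so had to be higher there, and without it 9 of 12 rose. At an unadjusted p under 0.05, 1 would have fallen, that of Nr1h3. A called difference had an adjusted p under 0.05 in limma after Benjamini-Hochberg adjustment over the 15384 probesets. The median difference of the 8 genes on their reporting probesets, the expressed probeset of highest mean, was 0.55 on the log2 scale in PPARα-null and 0.71 in wild-type mice, against 0.04 and -0.01 over all tested probesets. Several of the 13 probesets belong to the same gene. Counted by reporting probeset, 4 of the 8 genes rose and 1 fell in PPARα-null mice, where 16.1% of all genes rose and 11.7% fell. In wild-type mice 5 of the 8 rose and none fell, where 14.5% of all genes rose and 16.2% fell.

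**Figure D1:**
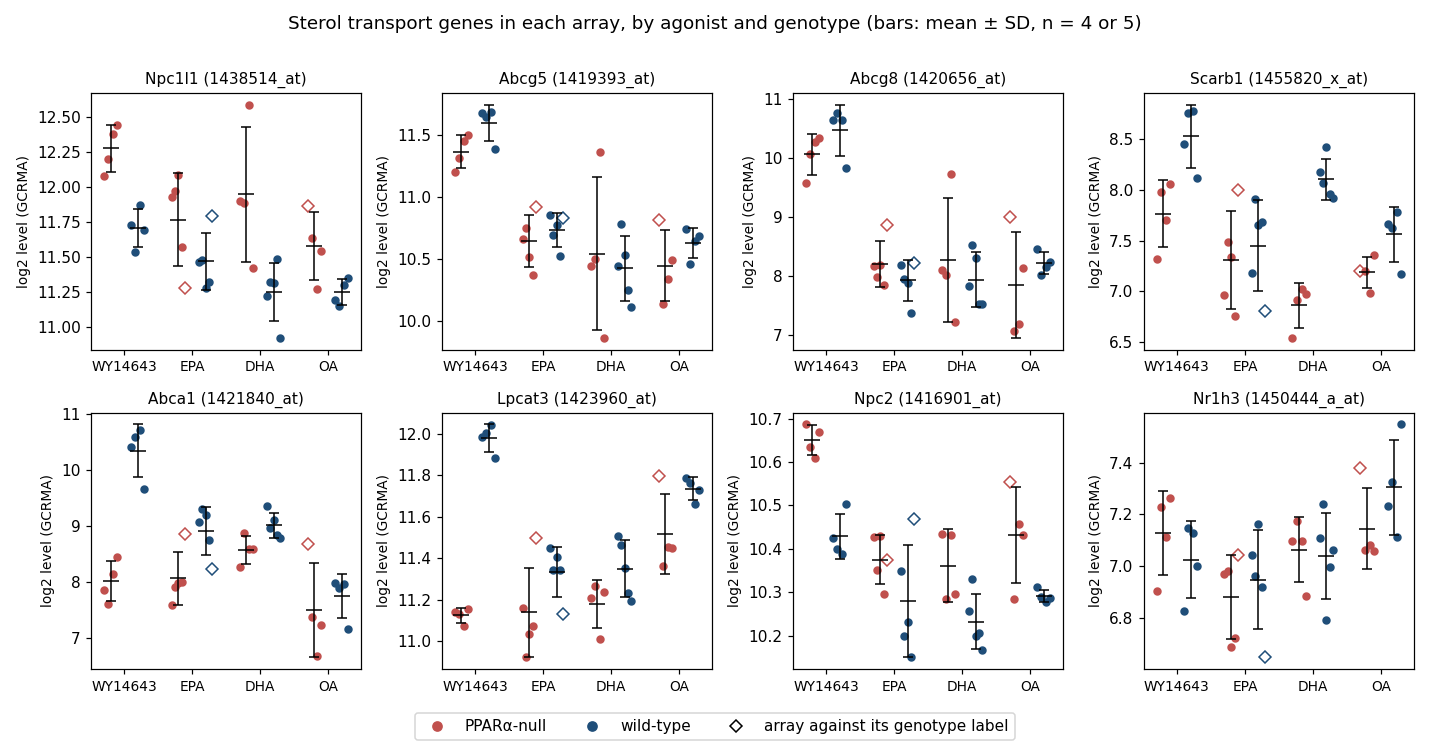
Log2 expression of the 8 expressed genes in each array (y axis), on the reporting probeset named in each title, by agonist (x axis), with PPARα-null mice in red to the left of wild-type mice in blue. Bars are the mean ± SD of 4 or 5 arrays, open diamonds are the 3 arrays that go against their genotype label, and Abcg5 and Abcg8 are highest after WY14643 in both genotypes, whereas Abca1 and Lpcat3 are highest after WY14643 in wild-type mice only.

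Abcg8 and Abcg5 encode the partners of the sterol efflux pump. After WY14643 the log2 level of Abcg8 was 9.58, 10.07, 10.27 and 10.34 in PPARα-null mice, against 9.00, 7.08, 7.19 and 8.14 after OA. Wild-type mice had 10.65, 10.76, 10.65 and 9.83 after WY14643 and 8.46, 8.01, 8.15 and 8.24 after OA. Every WY14643 array was above every OA array in both genotypes. The difference was 2.22 (SE 0.38), a 4.64-fold rise, in PPARα-null mice (limma, adjusted p = 0.000152) and 2.26 (SE 0.38), a 4.78-fold rise, in wild-type mice (adjusted p = 6.31e-05). The change in PPARα-null minus that in wild-type mice was -0.04, with a 95% confidence interval of -1.14 to 1.05 (limma, adjusted p = 0.996).

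Abcg5 moved with its partner. Its log2 level after WY14643 was 11.20, 11.31, 11.45 and 11.50 in PPARα-null mice, against 10.81, 10.13, 10.34 and 10.49 after OA. The wild-type levels were 11.68, 11.65, 11.68 and 11.38 after WY14643 and 10.74, 10.46, 10.65 and 10.68 after OA. Again no WY14643 array overlapped with an OA array. The rise was 0.92 (SE 0.19, 1.89-fold) in PPARα-null mice (limma, adjusted p = 0.000705) and 0.97 (SE 0.19, 1.95-fold) in wild-type mice (adjusted p = 0.000283). Its difference between the genotypes was -0.05, with an interval of -0.58 to 0.49 (adjusted p = 0.991). Both genes of the pump thus rose in both genotypes.

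Npc1l1, the brush border importer and the target of ezetimibe, moved the same way as the efflux pump, by less. After WY14643 its log2 level was 12.08, 12.20, 12.37 and 12.44 in PPARα-null mice, against 11.86, 11.63, 11.27 and 11.54 after OA. In wild-type mice it was 11.73, 11.54, 11.87 and 11.69 after WY14643 and 11.19, 11.15, 11.30 and 11.35 after OA. The 2 treatments did not overlap within either genotype. In PPARα-null mice the rise was 0.70 (SE 0.17, 1.62-fold; limma, adjusted p = 0.00409). The wild-type rise was 0.46 (SE 0.17, 1.37-fold) with an adjusted p of 0.0482, close to the threshold. That call was lost in 21 of the 35 fits that left out 1 array, with differences from 0.40 to 0.51. The interaction was 0.24, with an interval of -0.26 to 0.74 (adjusted p = 0.903).

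The comparisons with the 2 polyunsaturated oils share the WY14643 arrays with those against OA. Against EPA, 6 member probesets rose in PPARα-null mice, where 31.1% of all probesets were called (16.7% higher), and 10 in wild-type mice, where 38.1% were called (18.6% higher). Against DHA, 5 rose in PPARα-null mice (15.3% of all called, 8.2% higher) and 10 in wild-type mice (34% called, 16.1% higher). Both wild-type counts include Abca1 on 1450392_at, which the limit admitted through wild-type WY14643 alone. Without it, 9 of 12 rose in wild-type mice against EPA and 9 of 12 against DHA. No member fell in these 4 comparisons, and none was lower at an unadjusted p under 0.05. Abcg8 was higher after WY14643 than after EPA by 1.86 (adjusted p = 0.000355) in PPARα-null and 2.55 (adjusted p = 3.16e-06) in wild-type mice. The corresponding differences from DHA were 1.80 (adjusted p = 0.0036) and 2.53 (adjusted p = 7.56e-06). Abcg5 was higher by 0.72 and 0.86 than after EPA and by 0.82 and 1.17 than after DHA in PPARα-null and wild-type mice, all 4 called. Of these 8 differences of the pump, the arrays overlapped only in the 2 against DHA in PPARα-null mice. How many of all expressed probesets were separate in these comparisons was not counted. DHA replicate 3 of these mice stood at 11.36 for Abcg5, at 9.74 for Abcg8 and at 12.58 for Npc1l1, above the other 3 arrays of its group on all 3 genes. Npc1l1 was less clear-cut: it rose against EPA in PPARα-null mice (0.51, adjusted p = 0.0194; without the 3 arrays against their labels 0.39, adjusted p = 0.0594) and against DHA in wild-type mice (0.46, adjusted p = 0.0329). The other Npc1l1 differences, 0.24 from EPA in wild-type and 0.33 from DHA in PPARα-null mice, did not pass.

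Within a group, mice with more Abcg5 also had more Abcg8. Each array's deviation from its group mean was taken for the 8 genes, giving 28 pairs over 35 arrays. For Abcg5 and Abcg8, Pearson's r was 0.93 and Spearman's rho 0.89, each with a permutation p of 1e-05, the smallest that 100000 permutations within groups can give (adjusted p = 0.00028 each). Without the 2 arrays farthest from the median of Abcg5, r was 0.90, and without the 3 arrays against their labels it was 0.93.

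**Figure D2:**
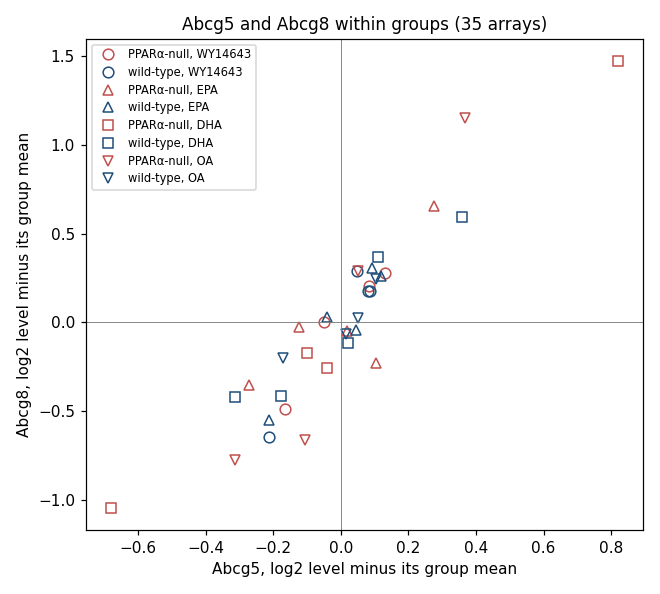
Deviation of Abcg8 (y axis) against that of Abcg5 (x axis) from the mean of its own group, in log2 units, for 35 arrays, with 1 symbol per agonist and 1 colour per genotype. The points lie along a rising line (r = 0.93), and the array at the upper right is PPARα-null DHA replicate 3, with deviations of 0.82 for Abcg5 and 1.47 for Abcg8.

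Among the other pairs, Abca1 and Lpcat3 had r = 0.67 and rho = 0.64 (permutation p = 0.00096 and 0.00033, adjusted 0.009 and 0.0046), but without the 3 arrays against their labels r was 0.25, so this relation rests on them. Abca1 and Scarb1 had r = 0.62 and rho = 0.61 (permutation p = 0.00017 and 0.00055, adjusted 0.0024 and 0.0051), and r was 0.72 without the 2 arrays farthest from the median. Without the 3 arrays against their labels r was 0.60 (permutation, adjusted p = 0.028), but rho was 0.55 and missed the threshold (adjusted p = 0.059). With the 2 farthest of the remaining arrays also left out, r was 0.48. Abcg5 and Npc1l1 had r = 0.59 and rho = 0.48 (permutation p = 0.021 and 0.013, adjusted 0.067 and 0.071), falling short of the threshold. For this pair r was 0.26 without the 2 farthest arrays, and 0.76 (adjusted p = 0.049) with rho 0.48 (adjusted p = 0.14) without the 3 arrays against their labels. Nr1h3 and Lpcat3 had r = 0.49 and rho = 0.51 (permutation p = 0.0063 and 0.0041, adjusted 0.035 and 0.029), with r = 0.19 without the 3 arrays, so that this relation also rests on them. Abcg5 and Npc2 had r = 0.49 and rho = 0.44 (permutation p = 0.0053 and 0.024, adjusted 0.035 and 0.082), and r was 0.49 (adjusted p = 0.11) without the 3 arrays.

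Abca1, which loads cholesterol onto apolipoprotein A-I, behaved differently from the brush border genes. On probeset 1421840_at its log2 level after WY14643 was 7.85, 7.61, 8.15 and 8.44 in PPARα-null mice, against 8.68, 7.38, 6.68 and 7.24 after OA. The same probeset read 10.41, 10.59, 10.72 and 9.67 after WY14643 in wild-type mice, against 7.98, 7.88, 7.96 and 7.16 after OA. The wild-type WY14643 arrays lay above every other array of the study, and in PPARα-null mice the 2 treatments overlapped. The difference was 0.52 (SE 0.31, interval -0.11 to 1.14; limma, adjusted p = 0.223) in PPARα-null mice and 2.60 (SE 0.31, 6.07-fold; adjusted p = 5.75e-07) in wild-type mice.

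The difference between these changes was itself called for Abca1, at -2.08 (interval -2.97 to -1.20; limma, adjusted p = 0.00903). For all members, 3 of 13 probesets had a called interaction, all lower in PPARα-null mice, against 1.07% of all expressed probesets, 0.845% in that direction. By reporting probeset 2 of the 8 genes had a called interaction, against 1.15% of all genes. The second Abca1 probeset, 1421839_at, gave -2.88 (adjusted p = 0.0243), and the third, 1450392_at, gave -2.80 without passing (adjusted p = 0.104). On 1421839_at the PPARα-null mean after WY14643 was 4.47, against 7.91 in wild-type mice, and on 1450392_at it was 3.29, against 6.89. Both PPARα-null means lie under the expression limit of 32. Of the 3 Abca1 probesets, only 1421840_at was above the limit in all 8 groups.

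That Abca1 rose in wild-type mice only depended on 1 array. PPARα-null OA replicate 1, at 8.68, was 1 of the 3 arrays against their labels. Without this array alone the PPARα-null difference of Abca1 was 0.91 and called (limma, adjusted p = 0.0168). Without the 3, the rise of Abca1 after WY14643 in PPARα-null mice was 0.91 (limma, adjusted p = 0.00532), and the interaction was -1.69 (adjusted p = 0.00262). So with or without them the wild-type rise was the larger, and without them a rise was called in both genotypes.

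Lpcat3, which builds polyunsaturated acyl chains into membrane phospholipids, fell in PPARα-null mice and did not fall in wild-type mice. Its log2 level after WY14643 was 11.14, 11.13, 11.07 and 11.16 in PPARα-null mice, against 11.80, 11.36, 11.45 and 11.45 after OA. In wild-type mice it was 11.98, 12.00, 12.04 and 11.88 after WY14643 and 11.79, 11.76, 11.66 and 11.73 after OA. The treatments did not overlap in either genotype, with WY14643 below OA in PPARα-null and above OA in wild-type mice. Lpcat3 fell by 0.39 on the log2 scale (SE 0.09; limma, adjusted p = 0.00332) in PPARα-null mice. The wild-type difference of 0.24 (SE 0.09) missed the threshold (adjusted p = 0.0541). Without the 3 arrays against their labels it was called (0.24, adjusted p = 0.00579), and the fall in PPARα-null mice was 0.30 (adjusted p = 0.00308). The interaction of -0.63 (interval -0.91 to -0.36) was called, with an adjusted p of 0.0107.

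Scarb1 encodes the HDL receptor SR-BI, which moves cholesterol between cells and lipoproteins in either direction. On probeset 1455820_x_at its log2 level after WY14643 was 7.32, 7.98, 7.70 and 8.05 in PPARα-null mice, against 7.20, 7.20, 6.98 and 7.36 after OA. Wild-type levels were 8.46, 8.76, 8.78 and 8.12 after WY14643 and 7.67, 7.63, 7.78 and 7.17 after OA. The wild-type groups were separate and the PPARα-null groups overlapped in 1 array. All 3 Scarb1 probesets rose in wild-type mice, by 0.97, 1.06 and 1.09 (limma, adjusted p = 0.00168, 0.000402 and 0.00103). In PPARα-null mice only 1437378_x_at passed, at 0.76 (adjusted p = 0.0191), beside 0.58 (adjusted p = 0.0575) and 0.50 (adjusted p = 0.0845) on the others. None of the 3 interactions passed, from -0.57 (adjusted p = 0.602) to -0.33 (adjusted p = 0.903), so a rise of Scarb1 in wild-type mice only was not shown. Without the 3 arrays against their labels all 3 probesets rose in PPARα-null mice, by 0.58 to 0.87.

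Npc2, a lysosomal protein that hands cholesterol to NPC1, moved by little. On probeset 1416901_at it was 10.69, 10.64, 10.61 and 10.67 after WY14643 in PPARα-null mice, against 10.56, 10.29, 10.46 and 10.43 after OA. The rise of 0.22 (1.16-fold; limma, adjusted p = 0.00964) was called, although without PPARα-null OA replicate 2 it was 0.17 and missed the threshold (adjusted p = 0.0533). On 1448513_a_at the PPARα-null means were 10.55 after WY14643 and 10.39 after OA, a difference that was not called. In wild-type mice 1416901_at differed by 0.14 (adjusted p = 0.0938) and 1448513_a_at rose by 0.21 (adjusted p = 0.0275). Neither interaction was called.

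Nr1h3, the gene of LXRα itself, was not called under WY14643 in either genotype, although with limma array weights it was lower in wild-type mice (-0.29, adjusted p = 0.0329). Its log2 level was 6.90 to 7.26 after WY14643, against 7.06 to 7.38 after OA, in PPARα-null mice, and 6.83 to 7.15 against 7.11 to 7.55 in wild-type mice. The differences were -0.02 (adjusted p = 0.929) and -0.28 (adjusted p = 0.0817), with intervals of -0.26 to 0.23 and -0.53 to -0.03. Abcg1, the partner of Abca1 in efflux to HDL, was below the limit in every group mean, and its highest array was wild-type WY14643 replicate 3 at 5.67 on 1423570_at, beside 4.07, 4.47 and 3.96 in the other 3 of that group.

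**Figure D3:**
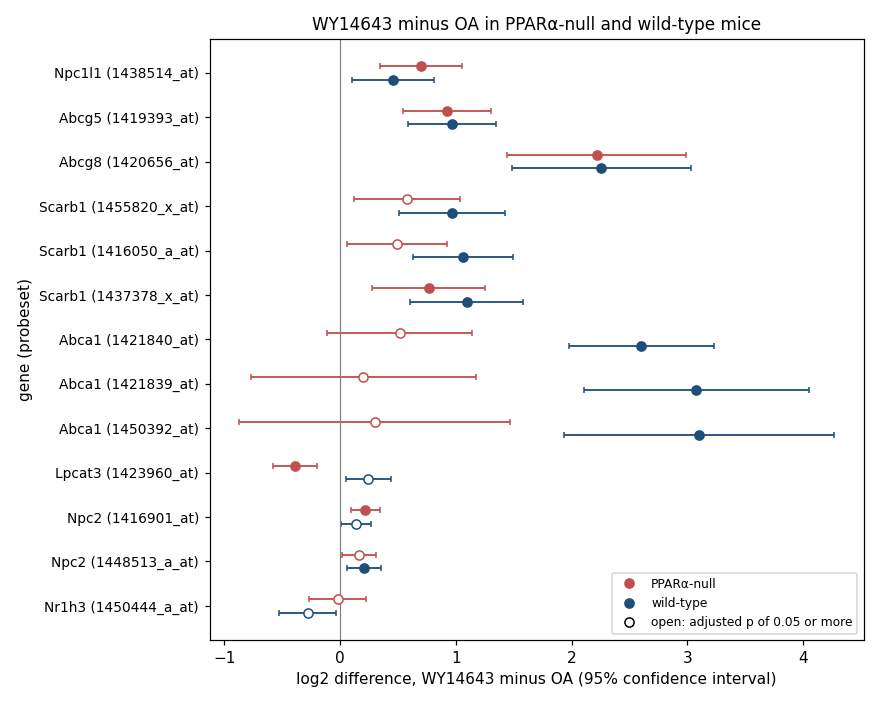
WY14643 minus OA on the log2 scale (x axis) for the 13 expressed probesets (y axis), with the 95% confidence interval from limma, in PPARα-null mice (red, upper) and wild-type mice (blue, lower); filled points had an adjusted p under 0.05. Both points of Npc1l1, Abcg5 and Abcg8 are filled, whereas Abca1 is filled in wild-type mice only, with 2.60 beside 0.52 on 1421840_at.

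The genotypes were then compared under each agonist. After WY14643, 9 of the 13 probesets differed, 2 higher and 7 lower in PPARα-null mice, against 6.22% of all expressed probesets (2.47% higher and 3.75% lower). Without 1450392_at, which the limit admitted through wild-type WY14643 alone, 8 of 12 differed. Lower in PPARα-null mice were Abca1 (-2.34 on 1421840_at), all 3 of Scarb1 (from -0.94 to -0.77) and Lpcat3 (-0.85, adjusted p = 1.53e-07). Higher were Npc1l1 (0.57, adjusted p = 0.0455) and Npc2 (0.22, adjusted p = 0.0238 on 1416901_at). Abcg5 and Abcg8 were not called, at -0.23 (interval -0.61 to 0.15; adjusted p = 0.563) and -0.41 (interval -1.18 to 0.37; adjusted p = 0.632). The count of 9 was 5 without wild-type WY14643 replicate 1 and 5 without wild-type WY14643 replicate 2. Npc1l1 lost its call in 19 of the 35 fits that left out 1 array, with differences from 0.51 to 0.63. Npc2 and the reporting probeset of Scarb1 lost theirs in 5 each. For both these were the fits without wild-type WY14643 replicate 1, 2 or 3 and without PPARα-null WY14643 replicate 1, and also without PPARα-null WY14643 replicate 4 for Npc2 and replicate 3 for Scarb1. Over the 35 fits Npc2 lay between 0.21 and 0.25 and Scarb1 between -0.90 and -0.62.

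After DHA, 4 probesets differed, 1 higher and 3 lower in PPARα-null mice, against 6.19% of all (2.74% higher and 3.45% lower). Scarb1 on 1455820_x_at was 6.54, 6.92, 7.02 and 6.97 in PPARα-null mice, against 8.17, 8.07, 8.42, 7.96 and 7.92 in wild-type mice. With no overlap, the difference was -1.24 (SE 0.21; limma, adjusted p = 0.00119), and the other Scarb1 probesets gave -0.90 and -1.04. Npc1l1 was 11.89, 11.88, 12.58 and 11.42 in PPARα-null mice, against 11.22, 11.32, 11.31, 11.48 and 10.92 in wild-type mice, a difference of 0.70 (adjusted p = 0.0101). Only the PPARα-null array at 11.42 overlapped with the wild-type range, and without DHA replicate 3, at 12.58, the difference was 0.48 and not called (adjusted p = 0.106). Abca1 did not pass after DHA (-0.44, adjusted p = 0.402).

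After EPA and after OA no member probeset was called between the genotypes, where 0% and 0.351% of all expressed probesets passed in limma. At an unadjusted p under 0.05, 3 member probesets passed after EPA, which were 2 of Abca1 and that of Lpcat3, and 3 after OA, which were both expressed Npc2 probesets and that of Lpcat3. The share of all probesets at this unadjusted limit was not counted, so these counts cannot be set against it. EPA and OA are the 2 agonists with arrays against their labels. Without the 3 arrays, 3 probesets were called after EPA, which were Abca1 on 1421840_at (-1.21, adjusted p = 0.000999) and on 1421839_at (-1.70, adjusted p = 0.00851) and Lpcat3 (-0.34, adjusted p = 0.00275), where 1.64% of all were called. After OA 1 was called, Lpcat3 (-0.31, adjusted p = 0.0159), where 1.45% of all were called.

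**Figure D4:**
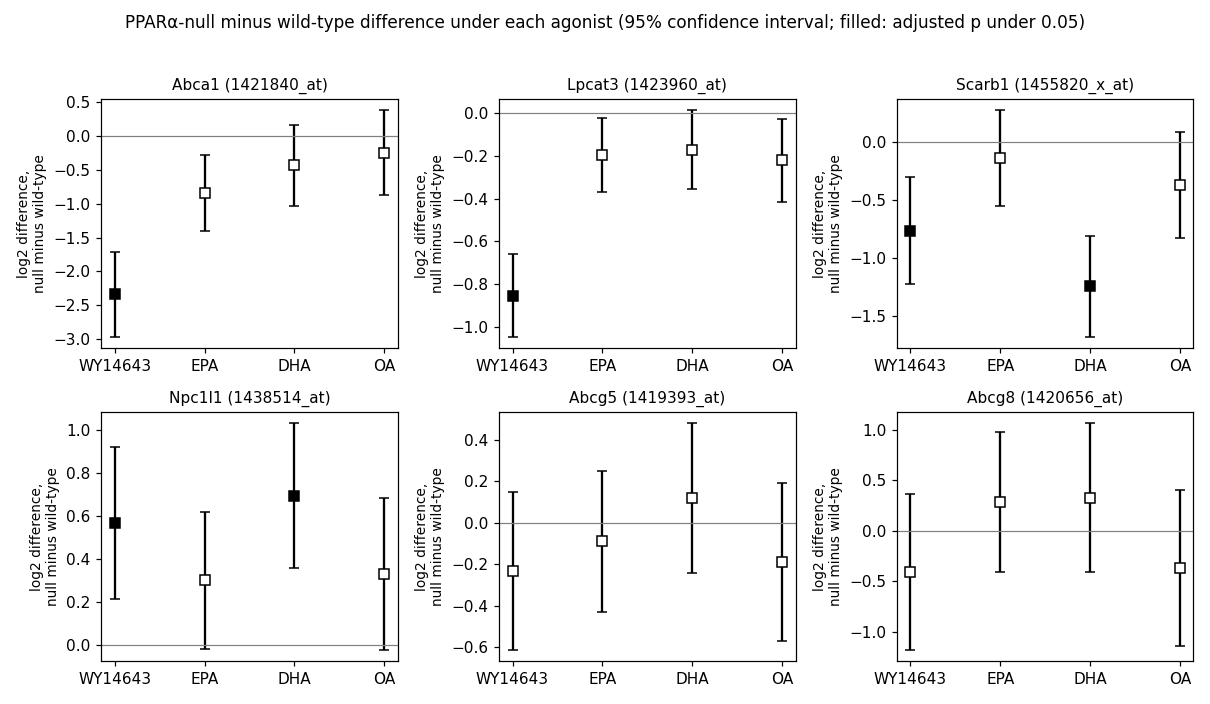
PPARα-null minus wild-type difference on the log2 scale (y axis) under each agonist (x axis) for 6 genes on their reporting probesets, with 95% confidence intervals from limma; filled squares had an adjusted p under 0.05, and each panel has its own y scale. Abca1 and Lpcat3 are filled after WY14643 only, Scarb1 and Npc1l1 after WY14643 and DHA, and Abcg5 and Abcg8 nowhere.

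Among the oils, Abca1 and Lpcat3 were the members that moved. In wild-type mice Abca1 was 9.07, 9.31, 9.20, 8.75 and 8.23 after EPA and 9.35, 8.97, 9.11, 8.84 and 8.79 after DHA, all above the OA arrays, the highest of which was 7.98. The rises were 1.16 (2.24-fold; limma, adjusted p = 0.012) and 1.26 (2.40-fold; adjusted p = 0.00931). The other 2 Abca1 probesets gave 0.93 to 1.08 and were not called. In PPARα-null mice Abca1 was 7.59 to 8.86 after EPA and 8.26 to 8.87 after DHA, differences from OA of 0.57 (adjusted p = 0.38) and 1.08 (adjusted p = 0.0932). Without the 3 arrays against their labels, the DHA difference in PPARα-null mice was 1.47 (adjusted p = 0.000604) and that of EPA 0.77 (adjusted p = 0.0797). The wild-type EPA rise was then 1.33 on 1421840_at (limma, adjusted p = 0.000211) and 1.31, also called, on 1421839_at (adjusted p = 0.0321). On 1450392_at it was 1.15 and not called (adjusted p = 0.184).

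Lpcat3 went the other way with the polyunsaturated oils. In wild-type mice it was 11.45, 11.34, 11.41, 11.34 and 11.13 after EPA and 11.51, 11.46, 11.35, 11.23 and 11.19 after DHA, all below the lowest OA array, 11.66. It fell by 0.40 after EPA (limma, adjusted p = 0.00447) and by 0.39 after DHA (adjusted p = 0.00997), so that the oils and WY14643 lay on either side of OA in wild-type mice. In PPARα-null mice it fell by 0.38 after EPA (adjusted p = 0.0195), and the DHA difference was -0.34 (adjusted p = 0.0885). The 3 Scarb1 probesets, 0.42 to 0.55 higher after DHA than after OA in wild-type mice, did not pass. Members called against OA were 1 of 13 for EPA and none for DHA in PPARα-null mice, where 2.2% and 0.923% of all probesets were called. They were 2 for each oil in wild-type mice, where 6.06% and 3.4% were called. In PPARα-null mice after DHA, 4 members had an unadjusted p under 0.05, namely 2 Abca1 probesets, Npc1l1 and Lpcat3, with the share of all probesets not counted at that limit.

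Against the polyunsaturated oils Lpcat3 rose after WY14643 in wild-type mice, by 0.64 against EPA (adjusted p = 2.72e-06) and 0.63 against DHA (adjusted p = 8.06e-06). In PPARα-null mice the difference from EPA was -0.01 (adjusted p = 0.932). The interactions of Lpcat3 were -0.66 with EPA (adjusted p = 0.00356) and -0.68 with DHA (adjusted p = 0.00709) in place of OA. Those of Abca1 on 1421840_at were -1.49 with EPA (adjusted p = 0.0745) and -1.90 with DHA (adjusted p = 0.028). Called interactions numbered 1 of the 13 member probesets with EPA, against 1.18% of all probesets, and 3 with DHA, against 0.436%. Without the 3 arrays against their labels, the interaction with EPA was -0.52 for Lpcat3 (limma, adjusted p = 0.00153). For Abca1 on 1421840_at it was -1.13 (adjusted p = 0.0806).

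Genes that the sterol sensors are known to control were read from lists. Of 12 SREBP2 targets, 9 were named and expressed, and 8 of the 9 fell after WY14643 against OA in each genotype, with none higher. Their median difference was -0.81 in PPARα-null and -1.22 in wild-type mice, against 0.04 and -0.01 over the reporting probesets of all 8626 expressed genes, of which 27.8% and 30.6% were called and 11.7% and 16.2% fell. Sqle, an early enzyme of the cholesterol branch, fell by 1.30 and 1.68, and Lss, which closes the sterol rings, by 1.22 and 1.46 in PPARα-null and wild-type mice. Fdps, which makes farnesyl pyrophosphate, fell by 1.36 in each, and Idi1, the isopentenyl isomerase, by 0.81 and 1.24. Srebf2, which encodes SREBP2, fell by 0.81 and 1.00, and Insig1 was not called (-0.37 and -0.39). No SREBP2 target had a called interaction (1.15% of all genes had). Npc1l1, which rose, is itself described as an SREBP2 target.

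LXR partners and further LXR targets were mixed. Of 14 listed genes 9 were named and expressed, of which 5 rose and 1 fell in PPARα-null mice and 3 rose in wild-type mice, where 16.1% and 14.5% of all genes rose. Mylip, a ubiquitin ligase, rose by 0.97 and 1.47 in PPARα-null and wild-type mice. Smpdl3a, a phosphodiesterase, rose by 0.71 and 0.81, and Rxrb, an RXR that pairs with LXR, by 0.41 and 0.51. Lpl, lipoprotein lipase, fell by 0.90 in PPARα-null mice. Srebf1, a lipogenic factor, was not called (-0.12, adjusted p = 0.76, and 0.53, adjusted p = 0.118). None of the 9 had a called interaction.

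**Figure D5:**
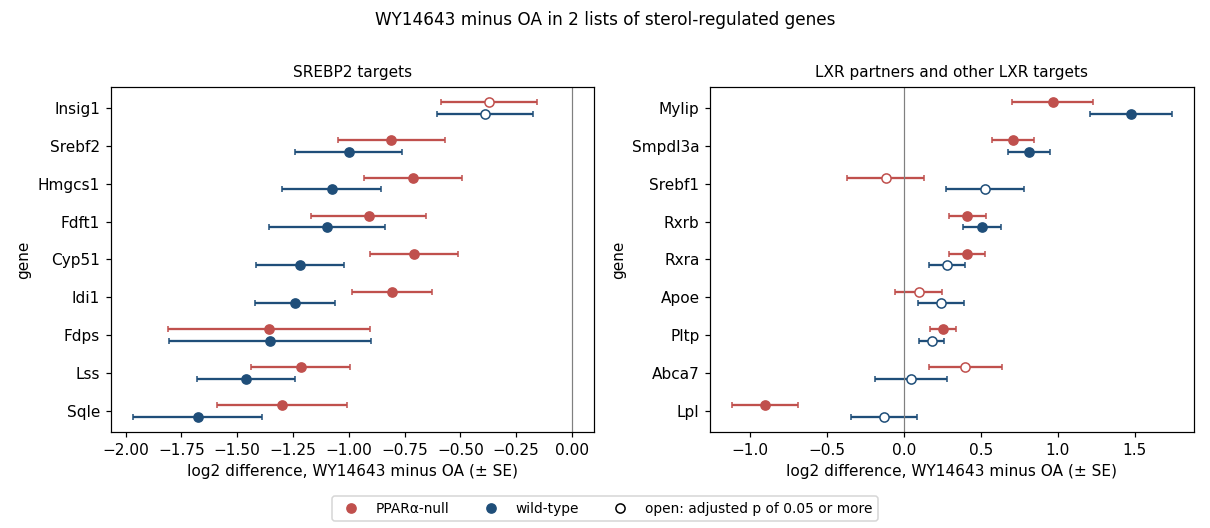
WY14643 minus OA on the log2 scale ± SE (x axis) for the 9 expressed SREBP2 targets (left) and the 9 expressed LXR partners and further targets (right), in PPARα-null mice (red, upper) and wild-type mice (blue, lower); filled points had an adjusted p under 0.05. All SREBP2 targets but Insig1 are filled and below 0 in both genotypes, and Mylip, Smpdl3a and Rxrb are filled and above 0 in both.

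Of 14 listed genes that handle sterols inside the cell, 13 were expressed. Of these 13 genes 1 rose and 1 fell in PPARα-null mice and 5 rose and 1 fell in wild-type mice, while 16.1% of all genes rose and 11.7% fell in PPARα-null mice and 14.5% rose and 16.2% fell in wild-type mice. Gramd1b, which carries cholesterol from the plasma membrane to the endoplasmic reticulum, rose by 0.99 in PPARα-null mice. In wild-type mice Scarb2, a lysosomal membrane protein, rose by 1.35, Nceh1, a cholesteryl ester hydrolase, by 1.02, and Cd36, a fatty acid receptor, rose 2.30-fold. Scarb2 had the only called interaction of the 13 (-1.43, adjusted p = 0.00847). Of 8 genes for apolipoproteins and chylomicron assembly, 3 fell in PPARα-null mice, and 3 fell and 1 rose in wild-type mice, against the same 11.7% of all genes lower in PPARα-null mice and 16.2% lower and 14.5% higher in wild-type mice. Apoc2, the activator of lipoprotein lipase, fell by 0.47 and 0.53, Mttp, which lipidates apolipoprotein B, by 0.37 and 0.32 and Sar1b, which carries chylomicrons out of the endoplasmic reticulum, by 0.37 and 0.35, whereas Apob rose by 0.88 in wild-type mice. Of the relatives of Lpcat3, 3 of 6 were expressed and Mboat1 fell, by 1.78 and 2.19.

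Marker counts of other cells and segments are to be read against the 27.8% of all genes called between WY14643 and OA in PPARα-null mice and the 30.6% called in wild-type mice. Distal ileum markers were lower, 2 of 4 in PPARα-null mice (Slc10a2 and Slc51b) and 3 of 4 in wild-type mice (those and Fabp6). Their summed linear level was 8071 to 13400 after WY14643 and 12846 to 14882 after OA in PPARα-null mice, and 10637 to 13462 against 15147 to 18695 in wild-type mice. Of 5 proximal markers, 1 rose and 1 fell in PPARα-null and 1 rose in wild-type mice. All 6 expressed acinar markers of the pancreas fell in PPARα-null mice, with sums of 1546 to 10067 after WY14643 against 42379 to 84700 after OA, and none was called in wild-type mice (6112 to 28241 against 11684 to 51985). No macrophage marker of 7 expressed was called in either genotype, and their sums were 1388 to 1644 after WY14643 against 1283 to 1521 after OA in PPARα-null mice and 1324 to 1395 against 1366 to 1464 in wild-type mice. Enterocyte markers were called in 4 of 7 (3 higher and 1 lower) in PPARα-null and in 2 of 7, both higher, in wild-type mice. Of 5 goblet and Paneth cell markers, 2 rose and 1 fell in PPARα-null mice and 1 fell in wild-type mice, and of 5 smooth muscle markers 1 fell in PPARα-null mice. None of 4 expressed lymphocyte markers was called. The part of these shifts in the sterol results was not tested.

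The expression pattern of Abca1, the member with the largest interaction, was set beside that of all other expressed genes. Over the 35 arrays the nearest were Decr1, an enzyme of unsaturated fatty acid oxidation (r = 0.85), Paqr7, a membrane progestin receptor (r = 0.85), Aldh1a1, a retinaldehyde dehydrogenase (r = 0.85), Crot, the carnitine octanoyltransferase of peroxisomes (r = 0.84), and Vps26a, a retromer subunit (r = 0.83). These arrays share treatments and genotypes, so the values describe the pattern over groups. The 5 genes were chosen for likeness to Abca1 over these same arrays, so a similar pattern over groups was built into the choice. All 5 rose after WY14643 in wild-type mice, by 0.52 to 2.69, and none was called in PPARα-null mice. The interaction of Aldh1a1 was not called (limma, adjusted p = 0.265), while those of the others were (adjusted p from 0.0162 to 0.0471).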

How the data were processed

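RNA was hybridised to whole-genome mouse Affymetrix arrays, 1 mouse per array, and the deposited values are log2 expression values that the authors computed from the probe intensities with GCRMA, whose version is not given in the sources used here. The values were used without further normalization. A table pairing probesets with genes named 34945 of the 45037 probesets that are not array controls by 1 gene. Probesets with several genes or none were tested unnamed. A probeset was tested where the mean of any of the 8 groups exceeded 32. One linear model of 8 group means over 35 arrays was fitted with limma 3.58.1 in R 4.3.3 (trended empirical Bayes), with Benjamini-Hochberg adjustment across 15384 probesets. The number of arrays limits the precision. Within-group correlations were tested by permutation and added after the data were seen.

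Members and gene lists were chosen with earlier results of these data known. Per gene, the expressed probeset of highest mean was reported, with others where they differed, and per list up to 4 called genes of largest change. Srebf1, Srebf2 and Insig1 were named outside this rule, after their values were seen. For Abca1 the 5 genes of highest correlation were named. Alternatives changed the filter, the threshold, the log scale, the normalization, the empirical Bayes step, array weights, the arrays kept, the groups fitted and the replicate block. The code was tested on simulated data.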

Additional observations from a re-analysis of the deposited data

Results flagged for a closer look

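Of 64 groups of 4 or 5 arrays, 4 held an array far from the rest, where chance gives about 1 in 20. Abca1 was low in wild-type OA replicate 4, at 7.16 with the nearest array at 7.89. In wild-type WY14643 replicate 4, Abcg5 was low at 11.38 (nearest 11.65) and Abcg8 at 9.83 (nearest 10.65). Nr1h3 was high in PPARα-null OA replicate 1, at 7.38 (nearest 7.08), which is an array against its genotype label.

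The change from OA to WY14643 differed between PPARα-null and wild-type mice for Abca1, by -2.88 on 1421839_at (limma, adjusted p = 0.0243) and -2.08 on 1421840_at (adjusted p = 0.00903), and for Lpcat3 by -0.63 (adjusted p = 0.0107). With EPA in place of OA it differed for Lpcat3 by -0.66 (adjusted p = 0.00356), and by -0.52 without the 3 arrays against their labels. With DHA in place of OA it differed for Abca1 by -3.01 on 1421839_at (adjusted p = 0.0253) and -1.90 on 1421840_at (adjusted p = 0.028), and for Lpcat3 by -0.68 (adjusted p = 0.00709).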

How the results depend on the processing

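Of 874 alternative values of the 19 called differences of single genes, 810 kept their direction and call, 64 kept the direction without passing and none changed sign. Npc1l1 lost its call between WY14643 and OA in wild-type mice with no filter on the level (adjusted p = 0.0958), with no intensity trend (0.0556), with quantile normalization (0.0686) and with the replicate block (0.0511). Its difference between genotypes after WY14643 lost the call with no filter (0.0843), no trend (0.0551) and the block (0.0501). With only the groups compared, the adjusted p was 0.0513 for the Abca1 interaction, 0.0602 for Npc2 between WY14643 and OA in PPARα-null mice and 0.118 for Npc1l1 between genotypes after DHA. With array weights Abca1 rose after WY14643 in PPARα-null mice too (0.68, adjusted p = 0.0438). Member probesets that differed between genotypes after WY14643 numbered 9, but 5 without a filter and 5 at an adjusted p under 0.01. After EPA they numbered 0, but 3 without the 3 arrays against their labels and 1 at an unadjusted p under 0.01, and after OA 0, but 1 and 1 in the same settings. Called interactions numbered 3, but 1 at an adjusted p under 0.01. Leaving out 1 array in turn gave 4 to 8 for WY14643 against OA in PPARα-null and 8 to 11 in wild-type mice, 2 to 4 for the interaction, and 5 to 9 between genotypes after WY14643, 0 after EPA, 3 to 5 after DHA and 0 after OA. Uncalled values near 0 changed sign. Without the 3 arrays Nr1h3 differed by 0.060 between WY14643 and OA in PPARα-null mice, and the interactions were 0.077 for Abcg5 and 0.34 for Abcg8. Leaving out 1 array gave -0.064 to 0.060, -0.15 to 0.077 and -0.30 to 0.34 for these. Between genotypes it gave -0.16 to 0.34 for Abcg5, -0.16 to 0.68 for Abcg8 and -0.040 to 0.083 for Nr1h3 after DHA, and -0.65 to 0.018 for Abca1 after OA. Deviations of same-numbered arrays correlated above 0.1 in 9 of 25 pairs. Between genotypes after WY14643 the 4 pairs gave 0.29, 0.34, 0.55 and 0.092, of which 3 were above 0.1, and no comparison had all its pairs above it, so the numbers were not taken as pairs, and with the replicate as a block the counts were 6, 9 and 4 for WY14643 against OA in PPARα-null mice, in wild-type mice and for the interaction, and 7, 0, 4 and 0 between genotypes after WY14643, EPA, DHA and OA. Apart from the fit without the 3 arrays, the share of all probesets called was not counted under these alternatives. The member counts here therefore show only how the calls of the members changed. The causes were not tested.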
